A study of Mus musculus with 18 samples.

Results

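Expression of 9 genes that mark neutrophils was followed in adipose tissue of mice lacking CSN8 in adipocytes. The 9 genes, out of 55487 counted, were S100a8, S100a9, Csf3r, Retnlg, Ngp, Camp, Ltf, Itgam and Trem1. They were listed by name, with no threshold on a measured value. CSN8 is the smallest subunit of the COP9 signalosome, which removes the ubiquitin-like protein NEDD8 from cullin ubiquitin ligases. Csn8AKO mice carried floxed Csn8 alleles and Cre under the adiponectin promoter, which deletes exons 4 to 6 in adipocytes. Ctrl mice were littermates with the floxed alleles and no Cre, so every mouse in the series was Csn8 f/f. Bulk RNA-seq was done on subcutaneous white adipose tissue (sWAT) of males aged 12 weeks (4 Ctrl, 4 Csn8AKO) and on brown adipose tissue (BAT) of males aged 4 weeks (5 Ctrl, 5 Csn8AKO). All mice were fed chow and fasted for 4 h. Tissue and age changed together, so their effects cannot be told apart. The promoter directs the deletion to adipocytes, whereas the genes described here are known from leukocytes.

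Neutrophils are short-lived granulocytes made in the bone marrow under G-CSF, and they are among the first cells to enter inflamed tissue. Their granules are filled during development with antimicrobial proteins, so transcripts of Camp, Ngp and Ltf are known from marrow precursors more than from mature cells, whereas mature cells are rich in S100a8 and S100a9. Several of these genes are shared with other myeloid cells: Itgam is also carried by monocytes and macrophages, and Csf3r by monocytes. In bulk tissue, a change in the number of cells of a type and a change in RNA per cell cannot be told apart. Nor can either be told from a change in the share of RNA that other cells give.

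The libraries held 15835721 to 23109603 counts in sWAT and 26658593 to 66719937 in BAT. A two-sided exact permutation test of library totals between genotypes gave p = 0.943 in sWAT and p = 0.103 in BAT, where the smallest p possible is 0.0286 and 0.00794. Counts on ribosomal RNA genes took 1.80% to 47.8% of a library in sWAT and 0.863% to 15.1% in BAT, and the same exact permutation test gave p = 0.343 and p = 0.635. Reads of Cops8, the gene of CSN8, fell in BAT by 0.30 on the log2 scale (SE 0.09, adjusted p = 0.0211) and gave -0.12 in sWAT (SE 0.11, adjusted p = 0.623), as counted over the gene with its undeleted exons and in all cell types. In sWAT, Ctrl replicate 1 and Csn8AKO replicate 2 stood apart, with 151.7 and 384.2 CPM (counts scaled to a common library total within the tissue) summed over 6 B cell markers. The other 6 sWAT libraries held 4.61 to 14.5 CPM. In BAT, Csn8AKO replicates 1 and 5 held 106.2 and 188.5 CPM of 6 skeletal muscle markers, and the other 8 libraries held 1.34 to 2.65 CPM.

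Most of the neutrophil genes were near the lower limit of these libraries, and 4 of 9 were measurable in sWAT and 3 of 9 in BAT. A gene was called measurable when it passed edgeR's expression filter, which asks for about 10 counts in as many libraries as the smallest group holds. In sWAT these were Itgam, Csf3r, Retnlg and S100a8, and in BAT Itgam, Csf3r and S100a9. Itgam held at least 132 counts in every sWAT library and at least 13 in every BAT library, and Csf3r at least 61 and 38. At the other end, Trem1 had 0 counts in all 4 sWAT Ctrl libraries and never more than 9 in any library. Ltf, Ngp and Camp reached 10 counts in 1 or 2 libraries of each tissue. A count of 3, taken as the floor of a library, stands for 0.136 to 0.224 CPM in sWAT and 0.0410 to 0.118 CPM in BAT. This floor covers counting error only.

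**Figure D1:**
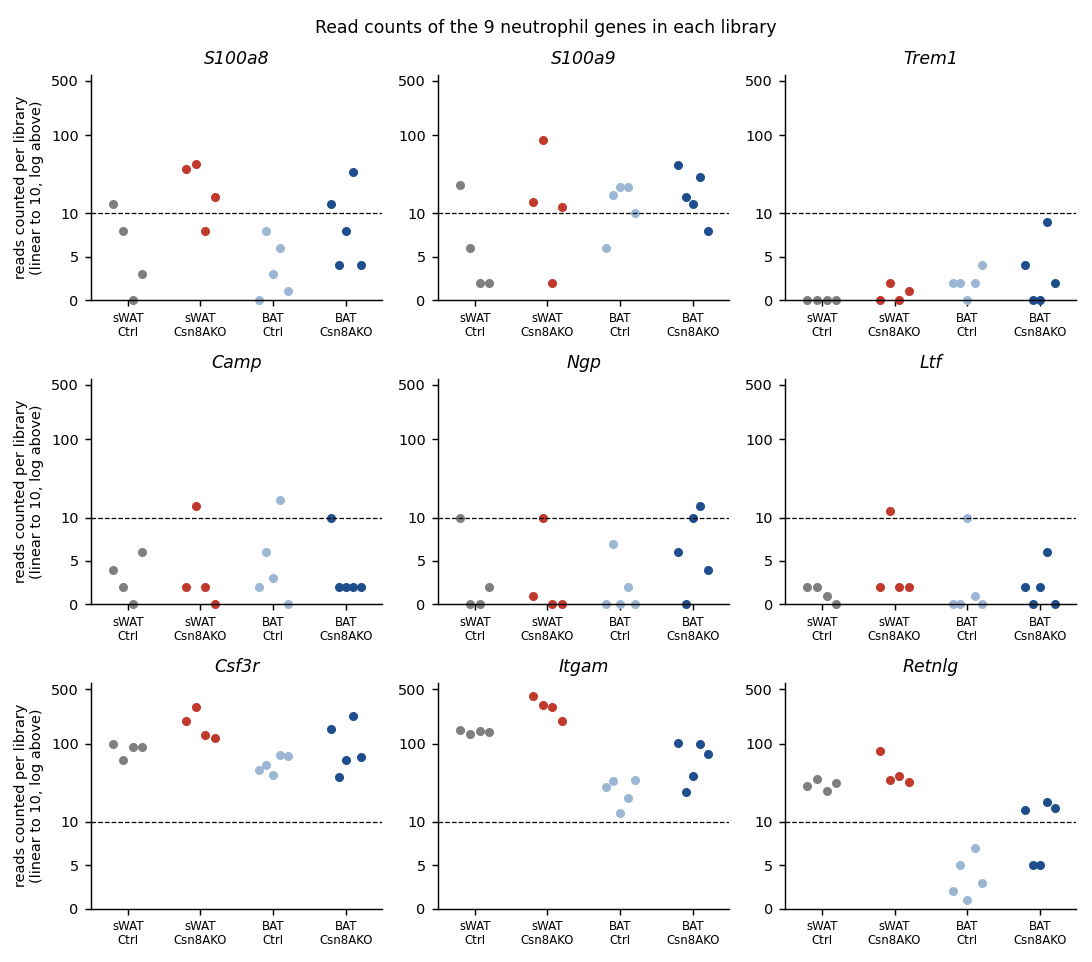
Reads counted on each of the 9 neutrophil genes in every library, by tissue and genotype, on a vertical axis that is linear up to 10 counts (dashed line) and logarithmic above. Each point is 1 library. Itgam and Csf3r lie above the line in all 18 libraries, whereas Trem1 stays under it in all 18.

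Itgam and Csf3r rose in Csn8AKO tissue at both sites, and they were the only members called after the filter when edgeR was fitted within each tissue. With all 4 groups in 1 fit, 3 members were called in sWAT and 4 in BAT. Of all 22509 genes, that fit called 1044 higher and 1419 lower in sWAT, and 2583 higher and 2677 lower in BAT. Itgam encodes CD11b, the alpha chain of the integrin Mac-1, which pairs with the beta chain from Itgb2 and serves adhesion and uptake of opsonised particles. Csf3r encodes the receptor for G-CSF, the growth factor of the neutrophil lineage. A call means a Benjamini-Hochberg adjusted p under 0.05 over all genes tested in edgeR's quasi-likelihood test. By that rule 2 of the 4 measurable members rose in sWAT, where 2.30% of all 18843 genes tested were called higher (434 higher and 566 lower). In BAT 2 of the 3 measurable members rose, where 16.0% of 22345 genes were called higher (3585 higher and 3536 lower). With library size alone as the scaling, the genes called higher and lower were 106 and 328 in sWAT and 4183 and 2087 in BAT.

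Itgam lies on mouse chromosome 7 (GRCm38, chr7:128062640-128118491, plus strand). Its promoter is shown here because Itgam, like Csf3r, was called in both tissues. PU.1 is a myeloid transcription factor encoded by Spi1, and its part in the change of Itgam was not tested. The 250 bases before the start of Itgam (RefSeq, GRCm38.p6, chr7:128062390-128062639, plus strand) are given with the core letters GAGGAA of a PU.1 site, or their reverse complement, in capitals.
Itgam promoter: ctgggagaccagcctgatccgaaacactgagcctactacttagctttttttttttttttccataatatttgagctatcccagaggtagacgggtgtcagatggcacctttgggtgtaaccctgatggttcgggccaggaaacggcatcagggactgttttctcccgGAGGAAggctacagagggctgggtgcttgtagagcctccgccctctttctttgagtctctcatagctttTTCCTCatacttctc
The letters occurred 2 times, starting 84 and 15 bases before the start. Over all 32851 promoters of this length, 23.3% held GAGGAA on either strand, and 5 of the 9 members did (S100a8, Csf3r, Itgam, Ltf and Trem1). The letters TTGCNNAA of a C/EBP site were in 9.56% of all promoters and in 4 of the 9 (S100a9, Ngp, Ltf and Retnlg). Matches of such short motifs are a description of the sequence.

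In sWAT, Itgam stood at 6.74, 6.68, 8.65 and 7.43 CPM in Ctrl replicates 1 to 4 and at 19.1, 14.3, 20.5 and 14.5 CPM in Csn8AKO replicates 1 to 4. Every Csn8AKO library lay above every Ctrl library. The means were 7.37 ± 0.91 CPM (SD, n = 4) and 17.1 ± 3.1 CPM (SD, n = 4), a log2 fold change of 1.21 (SE 0.18, edgeR adjusted p = 0.00632). The call held without each library in turn (adjusted p at most 0.0297) and without the 2 libraries rich in B cell genes (1.25, SE 0.19, adjusted p = 0.00384). With library size alone the fold change was 1.14 and the adjusted p 0.135.

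In BAT, Itgam was lower throughout, at 0.724, 0.559, 0.210, 0.369 and 0.613 CPM in Ctrl replicates 1 to 5 and at 1.74, 0.946, 1.34, 1.35 and 2.47 CPM in Csn8AKO replicates 1 to 5. Here too the groups did not overlap. The means were 0.495 ± 0.205 CPM (SD, n = 5) and 1.57 ± 0.58 CPM (SD, n = 5), and the log2 fold change was 1.68 (SE 0.33, adjusted p = 0.00141). Without Csn8AKO replicates 1 and 5, rich in muscle genes, it was 1.32 (SE 0.35, adjusted p = 0.0178). The gene model Gm49368 overlaps Itgam on the same strand and held at most 4 counts in any library.

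Csf3r (chr4:126024550-126044440, plus strand) stood at 4.43, 3.09, 5.39 and 4.78 CPM in sWAT Ctrl replicates 1 to 4 and at 8.94, 13.3, 8.96 and 8.82 CPM in Csn8AKO replicates 1 to 4. The groups did not overlap, and Csn8AKO replicate 2, the library richest in B cell genes, was the highest. The log2 fold change was 1.18 (SE 0.23, edgeR adjusted p = 0.0198), and it was 1.02 (SE 0.24, adjusted p = 0.0258) without the 2 libraries rich in B cell genes. The call was close to its limit: the adjusted p was 0.0542, 0.0587 and 0.0538 without Ctrl replicate 2, Ctrl replicate 4 and Csn8AKO replicate 3, and 0.212 with library size alone.

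In BAT, Csf3r stood at 1.19, 0.898, 0.645, 1.31 and 1.24 CPM in Ctrl replicates 1 to 5 and at 2.58, 1.50, 2.10, 3.05 and 2.27 CPM in Csn8AKO replicates 1 to 5. All 5 Csn8AKO libraries lay above all 5 Ctrl libraries. The log2 fold change was 1.14 (SE 0.24, adjusted p = 0.00214), with an adjusted p of at most 0.00888 when each library was left out and of 0.0152 without the 2 libraries rich in muscle genes. Of the genes tested, 5.80% in sWAT and 10.1% in BAT had all Csn8AKO libraries above all Ctrl libraries, as Itgam and Csf3r did.

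**Figure D2:**
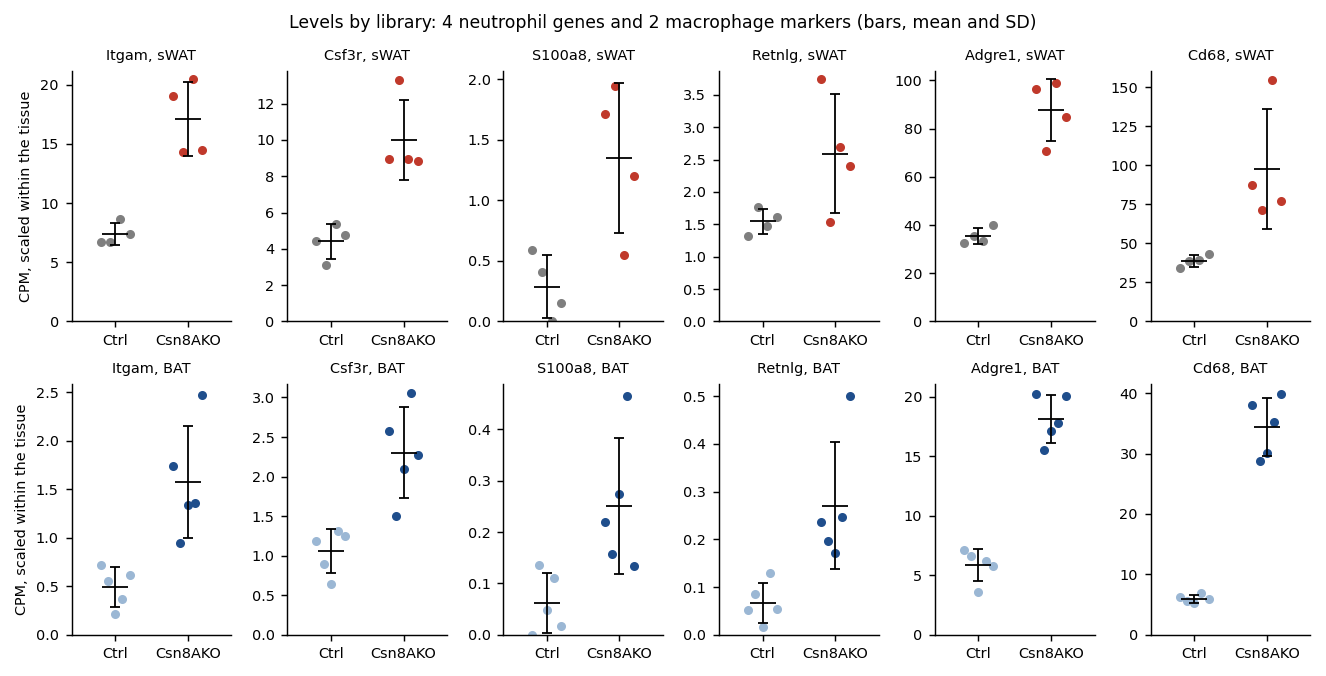
CPM, scaled within each tissue, of Itgam, Csf3r, S100a8 and Retnlg and of the macrophage markers Adgre1 and Cd68 (columns) in sWAT (top) and BAT (bottom). Points are libraries and bars are the mean and SD. Itgam, Csf3r, Adgre1 and Cd68 do not overlap between genotypes in either tissue, and S100a8 overlaps in both.

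S100a8 and S100a9 encode the subunits of calprotectin, a calcium-binding heterodimer that makes up much of the neutrophil cytosol and signals through TLR4. The genes lie 22597 bases apart on chromosome 3 (S100a8, chr3:90668978-90670035, plus strand; S100a9, chr3:90692632-90695721, minus strand). In sWAT, S100a8 had 13, 8, 0 and 3 counts in Ctrl replicates 1 to 4 and 37, 43, 8 and 16 counts in Csn8AKO replicates 1 to 4. After scaling, 3 of the 4 Csn8AKO libraries lay above every Ctrl library. The log2 fold change was 2.18 (SE 0.70, edgeR unadjusted p = 0.0102), and edgeR's adjusted p of 0.105 did not pass the threshold. With all 4 groups in 1 edgeR fit the adjusted p was 0.04997. DESeq2, which called 4.84% of the same genes higher, gave 2.23 (SE 0.73) and an adjusted p of 0.0256. S100a8 passed the filter mostly through its Csn8AKO libraries, and it did not pass once the 2 libraries rich in B cell genes were left out.

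In BAT, S100a8 had 0, 8, 3, 6 and 1 counts in Ctrl replicates 1 to 5 and 13, 4, 8, 34 and 4 counts in Csn8AKO replicates 1 to 5, and it did not pass the filter. In a fit of all 40085 genes with any count, of which 8.15% were called higher, its log2 fold change was 1.94 (SE 0.64, adjusted p = 0.0303). That call was lost without any of 5 libraries, Ctrl replicates 1, 3 and 5 and Csn8AKO replicates 3 and 4, with adjusted p from 0.0508 to 0.201. Csn8AKO replicate 4, which held 34 of the counts, moved it most, to 1.54 (SE 0.76).

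S100a9 showed no call in either tissue. In sWAT it had 23, 6, 2 and 2 counts in Ctrl replicates 1 to 4 and 14, 86, 2 and 12 counts in Csn8AKO replicates 1 to 4. The highest Ctrl and the highest Csn8AKO library were the 2 libraries rich in B cell genes, and the groups overlapped. Without the filter, where 1.16% of 36938 genes were called higher in sWAT, its log2 fold change was 1.77 (SE 1.03, adjusted p = 0.550), and 0.47 without Csn8AKO replicate 2.

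In BAT, S100a9 passed the filter, with 6, 17, 22, 22 and 10 counts in Ctrl replicates 1 to 5 and 42, 16, 13, 29 and 8 counts in Csn8AKO replicates 1 to 5. The log2 fold change was 0.81 (SE 0.36, edgeR unadjusted p = 0.0415, adjusted p = 0.104). On the CPM scale 3 of 5 Csn8AKO libraries lay above every Ctrl library. Trem1, a receptor that amplifies the response of myeloid cells through the adaptor Tyrobp, was not measurable in either tissue. It had 0 counts in the 4 sWAT Ctrl libraries, where each allows up to 0.136 to 0.178 CPM, and 0, 2, 0 and 1 counts in Csn8AKO. In BAT it had 2, 2, 0, 2 and 4 counts in Ctrl and 4, 0, 0, 9 and 2 counts in Csn8AKO, and the difference was not detectable at this depth.

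The 3 granule genes of chromosome 9 stayed near the floor in both tissues. Camp (chr9:109847379-109849617) encodes the cathelicidin antimicrobial peptide, Ngp (chr9:110419747-110423012) a granule protein of the cystatin family, and Ltf (chr9:111019271-111042767) the iron-binding lactoferrin. In sWAT, Camp had 4, 2, 0 and 6 counts in Ctrl replicates 1 to 4 and 2, 14, 2 and 0 in Csn8AKO. In sWAT, Ngp had 10, 0, 0 and 2 counts in Ctrl and 1, 10, 0 and 0 in Csn8AKO. In all 3 genes the highest Csn8AKO library of sWAT was replicate 2, since Ltf had 2, 2, 1 and 0 counts in Ctrl and 2, 12, 2 and 2 in Csn8AKO.

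In BAT, Camp had 2, 6, 3, 17 and 0 counts in Ctrl replicates 1 to 5 and 10, 2, 2, 2 and 2 in Csn8AKO. Ngp had 0, 7, 0, 2 and 0 counts in Ctrl and 6, 0, 10, 14 and 4 in Csn8AKO, and Ltf 0, 0, 10, 1 and 0 in Ctrl and 2, 0, 2, 6 and 0 in Csn8AKO. The groups overlapped for all 3 in both tissues. Without the filter none was called by edgeR (lowest adjusted p = 0.118, Ngp in BAT, log2 fold change 2.15, SE 0.92), and at an unadjusted p under 0.05 Ngp in BAT was the 1 gene of these 3. The result for Ngp in BAT rested on single libraries: it was 3.68 (SE 1.13, adjusted p = 0.0227) without Ctrl replicate 2 and 2.41 (SE 0.88, adjusted p = 0.0450) without Csn8AKO replicate 2. DESeq2 without the filter gave no adjusted p for these genes in sWAT or for Ltf in BAT, and 0.116 for Ngp and 0.844 for Camp in BAT.

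Retnlg, a resistin-like secreted protein of the myeloid lineage (chr16:48872621-48874496, plus strand), was measurable in sWAT alone. There it had 29, 35, 25 and 31 counts in Ctrl replicates 1 to 4 and 81, 34, 39 and 32 in Csn8AKO. The log2 fold change was 0.75 (SE 0.31, edgeR unadjusted p = 0.0373, adjusted p = 0.211). Without Csn8AKO replicate 1, the highest library, the fold change was 0.51. In BAT it had 2, 5, 1, 7 and 3 counts in Ctrl replicates 1 to 5 and 14, 5, 5, 18 and 15 in Csn8AKO, and scaled to CPM the groups did not overlap. Without the filter it was called higher there (1.94, SE 0.60, adjusted p = 0.0202), and the call was lost without Ctrl replicate 3 (adjusted p = 0.0607), without Csn8AKO replicate 5 (0.0993) and without both libraries rich in muscle genes (0.188).

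Retnlg has a close relative, Retnla, 28160 bases away, and the longest stretch identical between their transcripts was 49 bases of the 593 of Retnlg. The paper describes counting of uniquely aligned reads, and the longest identical stretch sets no limit on alignments that hold mismatches. Retnla itself held 221 to 404 counts in BAT Ctrl and 285 to 1099 in BAT Csn8AKO. Its log2 fold change in BAT was 1.57 (SE 0.21, adjusted p = 0.000101). The part of Retnla in the reads of Retnlg was not tested. Retnla here, and Prtn3, Elane, Cfd, Cxcr1, Cxcr2 and Csf3 below, were named after their values were seen.

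The sWAT libraries rich in lymphocyte genes also carried most reads of several low neutrophil genes. Beside the B cell markers, 7 T cell markers summed to 253.8 CPM in Ctrl replicate 1 and 334.2 CPM in Csn8AKO replicate 2, against 5.39 to 29.3 CPM in the other 6. Cxcr2, the neutrophil chemokine receptor, had 18, 3, 5 and 0 counts in Ctrl and 0, 131, 2 and 2 in Csn8AKO. Ly6g, which defines mouse neutrophils in most sorts, had 0 counts in all 8 sWAT libraries and at most 6 in BAT. Macrophage markers did not follow these libraries: the 25 summed to 1641 CPM in Ctrl replicate 1, within the 1611 to 2125 CPM of Ctrl, and to 2936 CPM in Csn8AKO replicate 2, the lowest of its group. The part of these libraries' lymphocyte content in the low genes was not tested.

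**Figure D3:**
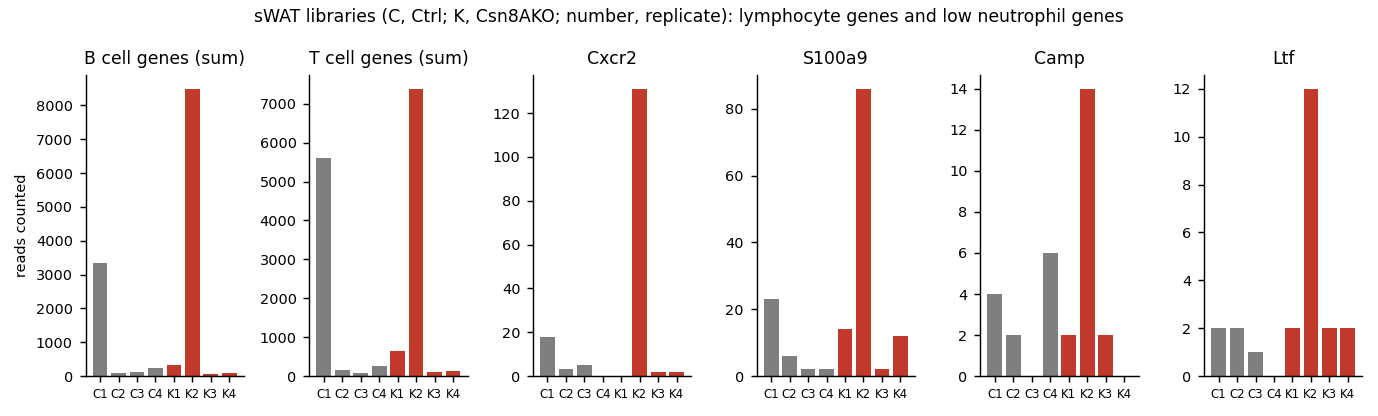
Reads counted in each sWAT library (C, Ctrl; K, Csn8AKO; number, replicate) on 6 B cell and 7 T cell markers summed, and on Cxcr2, S100a9, Camp and Ltf, on linear axes that start at 0. Csn8AKO replicate 2 is the highest library in every panel, with 131 counts of Cxcr2 and 86 of S100a9.

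Macrophage markers also rose in both tissues. Of 25 macrophage markers, all of which passed the filter, 14 rose and 0 fell in sWAT. Their median change was 0.91 on the log2 scale, where that of all genes was 0.03. In BAT 19 rose and 0 fell, with a median of 1.63 against 0.01 for all genes. Adgre1, which encodes F4/80, stood at 35.4 ± 3.3 CPM in sWAT Ctrl and 87.8 ± 12.9 CPM in Csn8AKO (SD, n = 4), a log2 fold change of 1.31 (SE 0.14, edgeR adjusted p = 0.00180). In BAT it rose by 1.63 (SE 0.16, adjusted p = 6.29e-06). Cd68, a lysosomal glycoprotein of macrophages, rose by 1.33 in sWAT (SE 0.23, adjusted p = 0.0127) and by 2.52 in BAT (SE 0.12, adjusted p = 1.12e-08).

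In sWAT, 10 of the 25 macrophage markers had a larger log2 fold change than Itgam, and the same number a larger one than Csf3r. Of the members not called there, Retnlg had 19 markers above it and S100a8 had 1. The value of S100a8 was imprecise (2.18, SE 0.70, edgeR adjusted p = 0.105). It also passed the filter mostly through its Csn8AKO libraries, so its rank does not show a larger change than that of the markers. In BAT, 11 markers had a larger log2 fold change than Itgam, 15 a larger one than Csf3r and 17 a larger one than S100a9, which was not called. The 25 fold changes themselves ran from -0.24 to 2.63 in sWAT and from -0.26 to 4.78 in BAT. Lyz2 and Cd14 of this list are also expressed by neutrophils.

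**Figure D4:**
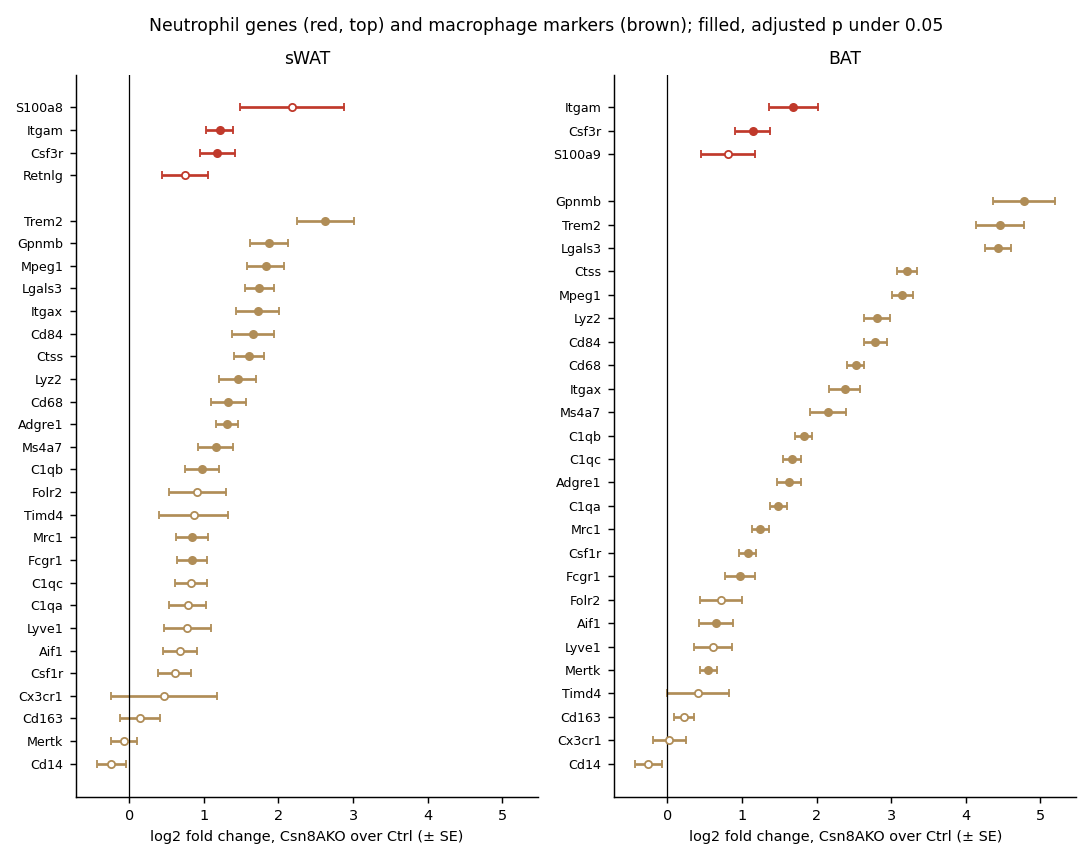
Log2 fold change of Csn8AKO over Ctrl with its SE in sWAT (left) and BAT (right), for the measurable neutrophil genes (red, top) and the 25 macrophage markers (brown), with filled points where the adjusted p was under 0.05. Itgam at 1.21 and Csf3r at 1.18 lie within the macrophage markers in sWAT, and Csf3r at 1.14 lies in the lower part of their range in BAT.

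A fit with the summed macrophage marker count in place of the library size tested each member against the macrophage level of its own library. In sWAT Itgam had 4.11, 4.15, 4.52 and 3.49 reads per 1000 macrophage marker reads in Ctrl replicates 1 to 4 and 4.22, 4.89, 4.62 and 4.78 in Csn8AKO replicates 1 to 4. The log2 fold change on this scale was 0.19 (SE 0.24, adjusted p = 0.493), and for Csf3r it was 0.24 (SE 0.32, adjusted p = 0.522). S100a8 gave 1.18 (SE 0.75, adjusted p = 0.180) and Retnlg -0.32 (SE 0.37, adjusted p = 0.452). None of these 4 was called by edgeR in either direction, and none had an unadjusted p under 0.05. Of all genes, 61.1% were called lower relative to the macrophage markers in sWAT.

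In BAT, Csf3r had 5.54, 4.61, 3.82, 5.67 and 7.00 reads per 1000 macrophage marker reads in Ctrl replicates 1 to 5 and 3.42, 2.43, 2.74, 4.27 and 2.52 in Csn8AKO replicates 1 to 5. On this scale 94.5% of all genes were called lower in BAT, against 2 of the 3 measurable members. Csf3r was called, at -0.77 on the log2 scale relative to these markers (SE 0.25, adjusted p = 0.00460). So was S100a9, at -1.08 (SE 0.41, adjusted p = 0.0142), and Itgam gave -0.27 (SE 0.31, adjusted p = 0.399). With Adgre1 alone as the reference, Csf3r gave -0.51 (SE 0.31, adjusted p = 0.101), and without Ctrl replicate 3 S100a9 gave -0.91 (adjusted p = 0.0536).

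**Figure D5:**
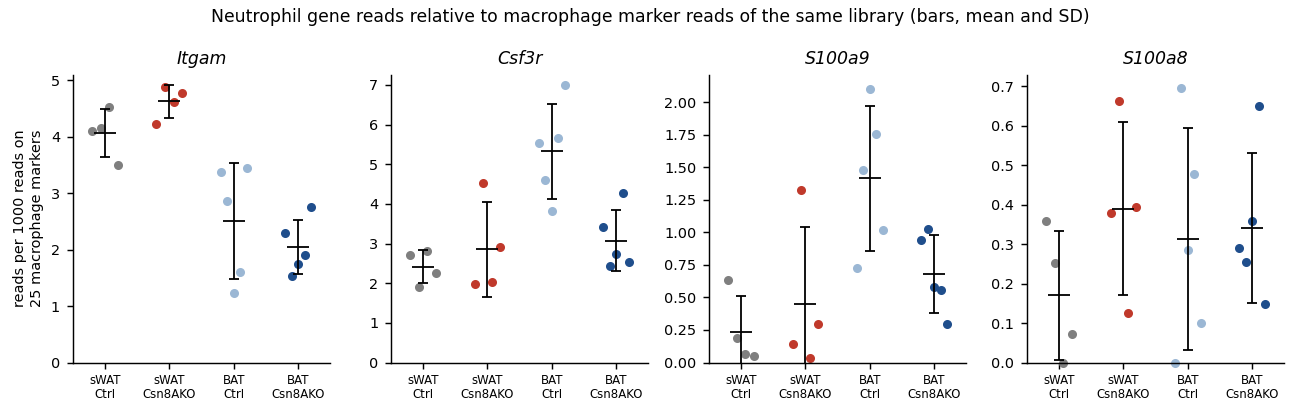
Reads of Itgam, Csf3r, S100a9 and S100a8 per 1000 reads on the 25 macrophage markers of the same library, with points for libraries and bars for the mean and SD. Csf3r in BAT runs from 3.82 to 7.00 in Ctrl and from 2.43 to 4.27 in Csn8AKO, and Itgam in sWAT overlaps between genotypes.

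The change with genotype was then compared between the tissues, with the age difference included. None of the 5 members that passed the filter over all 18 libraries was called by edgeR in this interaction test, where 2.36% of 22509 genes were called, and DESeq2 also called 0 of the 5. At an unadjusted p under 0.05 there was 1, Retnlg, whose log2 fold change was 1.18 larger in BAT than in sWAT (SE 0.56, adjusted p = 0.317, between 0.211 and 0.506 under the alternatives). For Itgam the difference was 0.45 (SE 0.39, adjusted p = 0.650) and for Csf3r -0.06 (SE 0.34, adjusted p = 0.971). S100a8 gave -0.26 (SE 1.19, adjusted p = 0.956), and 0.12 without sWAT Ctrl replicate 3, 0.20 without BAT Ctrl replicate 2 and -0.84 without sWAT Ctrl replicate 1. S100a9 gave -1.004 (SE 0.97, adjusted p = 0.688), and from -2.13 without sWAT Ctrl replicate 1 to 0.30 without sWAT Csn8AKO replicate 2, so neither had a stable direction. Of the 25 macrophage markers, 6 differed, all with the larger change in BAT, Cd68 among them (1.18, SE 0.26, adjusted p = 0.0163).

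Per transcript length, Retnlg was the highest member in sWAT and S100a9 in BAT. The deposited TPM values, which are divided by gene length and are not corrected for ribosomal RNA, give the order of levels within a group. In sWAT Ctrl, Retnlg stood at 7.07 ± 1.47 TPM, Itgam at 4.00 ± 0.86 and Csf3r at 3.39 ± 1.11 (SD, n = 4), each above the next in all 4 libraries for the first 2 steps. S100a9 followed at 2.23 ± 2.86 TPM, S100a8 at 1.19 ± 1.17, Camp at 0.609 ± 0.598 and Ngp at 0.372 ± 0.571, and these neighbours did not differ beyond their spread.

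In sWAT Csn8AKO the order was Retnlg at 9.77 ± 6.11 TPM, S100a9 at 8.24 ± 12.9, Itgam at 7.75 ± 3.87, Csf3r at 6.78 ± 4.96 and S100a8 at 5.07 ± 4.39 (SD, n = 4), with neighbours within their spread across libraries. Within a library, Csf3r was above S100a8 in all 4. Retnlg was above S100a9 in 3, Itgam above Csf3r in 3 and S100a9 above Itgam in 1. In BAT Ctrl, S100a9 stood at 1.44 ± 0.65 TPM, Csf3r at 0.779 ± 0.233, Camp at 0.373 ± 0.472, Retnlg at 0.306 ± 0.211, Itgam at 0.256 ± 0.094 and S100a8 at 0.250 ± 0.232 (SD, n = 5). S100a9 was above Csf3r in 4 of 5 Ctrl libraries and Csf3r above Camp in 4, and the neighbours from Camp to S100a8 did not differ beyond their spread. In BAT Csn8AKO, S100a9 was again first at 2.62 ± 1.02 TPM, followed by Csf3r at 1.86 ± 0.68, Retnlg at 1.33 ± 0.77, S100a8 at 1.05 ± 0.63 and Itgam at 0.919 ± 0.428 (SD, n = 5), each within the spread of its neighbour. Ltf and Trem1 were the last 2 in all 4 groups.

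Other genes of neutrophil biology were read from fixed lists. Of 12 further granule proteins and enzymes, 9 passed the filter in sWAT, where 4 rose and 1 fell (median log2 fold change 0.74), and 8 in BAT, where 6 rose and 0 fell (1.55). The log2 fold change, called or not, lay above 0 for 7 of the 9 in sWAT and for 6 of the 8 in BAT. Lcn2, a siderophore-binding granule protein that adipocytes also secrete, had 8 to 37 counts in sWAT Ctrl and 6530 to 9682 in Csn8AKO (log2 fold change 9.10, SE 0.55, edgeR adjusted p = 0.000138). It rose by 5.78 in BAT (SE 0.39, adjusted p = 2.81e-06). Ncf1, a subunit of the phagocyte NADPH oxidase, rose by 1.11 in sWAT (SE 0.16, adjusted p = 0.00531), and Lyz1, a lysozyme, by 2.76 in BAT (SE 0.24, adjusted p = 3.59e-06). Mpo, the myeloperoxidase of primary granules, had at most 10 counts in any library. Elane, which encodes neutrophil elastase, was not called in either tissue and lay below 0 in both. It gave -0.60 in sWAT (SE 0.40, edgeR adjusted p = 0.449) and -1.07 in BAT (SE 0.45, adjusted p = 0.0854).

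The member of that list that fell, Prtn3, encodes proteinase 3 and changed in opposite directions in the tissues. It had 247, 199, 292 and 302 counts in sWAT Ctrl replicates 1 to 4 and 50, 53, 64 and 70 in Csn8AKO, a fall of 1.93 on the log2 scale (SE 0.31, adjusted p = 0.00865). In BAT it rose by 1.81 (SE 0.50, adjusted p = 0.0131), from lower counts of 6 to 25 in Ctrl and 7 to 108 in Csn8AKO. The BAT groups overlapped on the CPM scale. Prtn3 ends 7679 bases before Cfd, the adipocyte gene of adipsin, on the same strand of chromosome 10. Cfd held 145953 to 185621 counts in sWAT Ctrl and fell there by 1.46 (SE 0.34, adjusted p = 0.0350). In BAT, where Prtn3 rose, Cfd gave -0.65 (SE 0.32, adjusted p = 0.157). Elane lies between Prtn3 and Cfd on the same strand. The part of Cfd in the reads of Prtn3 was not tested.

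Of 12 surface receptors of neutrophils, 5 passed in sWAT, of which 2 rose, and 6 in BAT, of which 6 rose, with medians of 0.57 and 1.84. Clec4d, a C-type lectin of myeloid cells, rose by 3.15 in sWAT (SE 0.51, adjusted p = 0.00865) and by 4.29 in BAT (SE 0.52, adjusted p = 3.58e-05), from 4 to 12 and 0 to 6 counts in Ctrl. Itgb2, the beta chain that pairs with CD11b, rose by 1.25 in sWAT (SE 0.24, adjusted p = 0.0199) and by 2.27 in BAT (SE 0.15, adjusted p = 3.46e-07). Clec4d in both tissues and Cxcr1 in BAT passed the filter through their Csn8AKO libraries. Their place in these counts and medians therefore depended on the filter.

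Of 8 ligands and growth factors that attract or sustain neutrophils, 3 passed in sWAT with 0 called by edgeR, and 4 in BAT with 1 called. That was Cxcl1, a ligand of Cxcr2, with 2 to 13 counts in BAT Ctrl and 4 to 109 in Csn8AKO (2.95, SE 0.71, adjusted p = 0.00767), and it passed the filter mostly through the latter. In sWAT Cxcl1 gave 1.55 (SE 0.62, adjusted p = 0.191), and it was the 1 gene of the 3 with an unadjusted p under 0.05. DESeq2 also called 0 of these 3. Csf3, which encodes G-CSF, had at most 12 counts in sWAT and 15 in BAT.

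All 5 genes for adhesion of neutrophils to vessels passed in both tissues, with 0 called by edgeR in sWAT (1 at an unadjusted p under 0.05, and 1 by DESeq2 of the 4 with an adjusted p) and 3 higher in BAT. Of these, Selplg, which encodes the selectin ligand PSGL-1, rose by 1.83 in BAT (SE 0.17, adjusted p = 4.56e-06) and Icam1, the endothelial ligand of Mac-1, by 0.94 (SE 0.19, adjusted p = 0.00178). Of 6 receptors and adaptors of S100A8/A9 and TREM1, 2 rose in sWAT and 3 in BAT. Tyrobp, the adaptor of TREM1, rose by 1.44 in sWAT (SE 0.26, adjusted p = 0.0134) and by 2.04 in BAT (SE 0.18, adjusted p = 3.57e-06). Syk, the kinase that Tyrobp engages, rose by 0.97 (SE 0.22, adjusted p = 0.0347) and by 2.06 (SE 0.18, adjusted p = 3.57e-06).

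Of 4 transcription factors of granulopoiesis, 3 passed in sWAT, of which Spi1 rose by 1.10 (SE 0.21, adjusted p = 0.0192). In BAT 2 passed: Spi1 rose by 1.51 (SE 0.22, adjusted p = 0.000148) and Cebpa, which adipocytes express at high levels, fell by 0.95 (SE 0.12, adjusted p = 6.59e-05). Itgb2, Tyrobp, Syk and Spi1 are all also expressed by macrophages. Ncf1 and Clec4d, described above as genes of phagocytes and of myeloid cells, are not particular to neutrophils either. A rise in these lists is therefore not a measure of neutrophils alone.

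The genes whose deviations from the group means most resembled those of Itgam over the 18 libraries were Hace1, Trerf1, Rnf165, Kdelr3 and Psat1 (Pearson r of log2(CPM + 0.5) from 0.901 to 0.826). For S100a8 they were Ythdc2, Depdc1b, Gm2147, Gm44901 and Gm16754 (r from 0.861 to 0.836). No other member was among them. The genes were picked by the highest r from the 22509 that passed the filter over the 4 groups. What r such a search gives by chance was not tested. These are descriptions over libraries that share a depth and a ribosomal RNA share within each library, and for S100a8 they rest on counts of 0 to 43.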

How the data were processed

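Total RNA of 18 libraries was depleted of ribosomal RNA and sequenced by the study. The authors aligned reads to the mouse Ensembl assembly (GRCm38) using STAR 2.7.9a, and featureCounts tallied for each gene the reads with 1 clear assignment. Strand use in counting is not given in the sources used here. The deposited files hold raw counts per gene with CPM, FPKM and TPM values that the authors computed from these counts. The deposited CPM and FPKM columns were checked against the counts and not used further, and TPM served only to order genes within a group. Gene symbols came from GENCODE M21 for 55227 of 55487 identifiers.

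Counts were tested within each tissue with edgeR 4.0.16 (TMM scaling, filterByExpr with a minimum count of 10 and total of 15, robust glmQLFit, glmQLFTest) in R 4.3.3, with Benjamini-Hochberg adjustment over all genes tested and a threshold of 0.05. CPM printed in the text use TMM-scaled library sizes set within each tissue. The interaction used all 18 libraries. The test relative to macrophages used the same genes with the summed count of 25 macrophage markers as library size. DESeq2 1.42.0, the tool of the study, was an alternative, beside 6 changes of scaling, filter, ribosomal RNA genes or groups fitted, other macrophage references, a replicate block and each library left out in turn. Reporting the fit without the filter as a result of its own, and fits without libraries rich in lymphocyte or muscle genes, were added after seeing the data. Single values per library were compared by exact permutation tests (scipy 1.17.1). The scripts were tested on simulated data. No 2 libraries agreed within sampling noise. The labels do not say that libraries came from separate animals, and p-values measure only the spread between these samples.

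The members and gene lists were chosen with earlier results of these data known. All 9 members are named. Of each other list the text names at most 2 called genes of smallest adjusted p per tissue, with Cops8, Adgre1, Cd68, Ly6g and Mpo and the 5 genes most like S100a8 and Itgam. Promoter sequences came from RefSeq (GRCm38.p6), in which all 9 members were found. Replicate numbers did not pair the samples.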

Additional observations from a re-analysis of the deposited data

Results flagged for a closer look

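Of 46 sets of libraries from 1 group examined (members with at least 10 counts in a library, and 5 marker sums), 10 held a library far from the others by Dixon's gap test, where chance gives about 1 in 20. In sWAT Csn8AKO, replicate 2 was the highest and far from the rest for Csf3r (13.3 CPM), Ngp (0.453 CPM), Ltf (0.543 CPM), the B cell markers (384.2 CPM summed) and the T cell markers (334.2 CPM summed). In sWAT Ctrl, replicate 1 stood apart for the B cell markers (151.7 CPM) and the T cell markers (253.8 CPM), and replicate 3 for the skeletal muscle markers (2836 CPM). In BAT, Csn8AKO replicate 5 stood apart for Retnlg (0.501 CPM) and Ctrl replicate 3 for Ltf (0.161 CPM, from 10 counts).

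None of the 5 neutrophil genes tested was called for a different change with genotype between the tissues, but some genes set beside them were, by the interaction test (edgeR, log2 fold change in BAT minus that in sWAT). The change was larger in BAT for the macrophage markers Lgals3 (2.67, adjusted p = 1.88e-05), Gpnmb (2.91, 0.00419), Ctss (1.58, 0.000703), Lyz2 (1.33, 0.0196), Mpeg1 (1.30, 0.00992) and Cd68 (1.18, 0.0163). It was also larger there for Prtn3 (3.71, 0.00409), Lyz1 (1.68, 0.00970), Syk (1.08, 0.0446) and Ear2 (1.39, 0.0464), and smaller for Lcn2 (-3.35, 0.00865). Cxcr1 gave 9.34 (adjusted p = 0.0332), a value that depends on the prior count, since all 4 sWAT Csn8AKO libraries had 0 counts.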

How the results depend on the processing

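No called member changed direction under any setting. In sWAT the 1000 called genes became 434 with library size alone, 1946 with DESeq2, 2463 with all 4 groups in 1 fit and 1820 without the 2 libraries high in B and T cell genes, a setting chosen after seeing the data (326 to 1477 without each library in turn, with 326 to 481 without each of Ctrl replicates 2, 3 and 4 and Csn8AKO replicates 1 and 3). The 2 members called in sWAT became 0 with library size alone, with or without the filter (1 to 2 without each library in turn, and 1 to 3 without the filter). With all 4 groups in 1 fit 3 members were called in sWAT. In BAT 4 members were called with no filter and 4 with all 4 groups in 1 fit, against 2. Without each library in turn the count was 2 after the filter and 2 to 5 without it. Relative to macrophage markers, the 2 members lower in BAT became 1 with Adgre1 alone (1 to 2 without each library in turn). The interaction count of 532 became 1092 with DESeq2 (355 to 720 without each library in turn). Library size alone moved the median log2 fold change of all BAT genes from 0.01 to 0.14, and that of the interaction from -0.00411 to 0.21, with 92.7% against 68.0% of the called genes larger in BAT. Same-numbered Ctrl and Csn8AKO libraries did not deviate together (r from -0.42 to 0.24), so the numbers were not taken as pairs. With the replicate block 299 genes and 1 member were called in sWAT (Csf3r adjusted p = 0.101), 1 member there without the filter, and 297 genes in the interaction. The cause of these shifts was not tested. Depth limits Camp, Ngp, Ltf and Trem1 most, with at most 17 counts in a library.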

Other observations

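Other leukocyte markers were read beside the neutrophil genes. In BAT, 4 of the 5 mast cell markers that passed the filter rose, among them Mcpt4, a chymase (log2 fold change 3.05, SE 0.27, edgeR adjusted p = 2.86e-06), and Cpa3, a carboxypeptidase (2.57, SE 0.23, adjusted p = 3.63e-06). In sWAT 7 passed and 0 were called, with 1.41 for Mcpt4 (SE 0.40, adjusted p = 0.0845) and 1.54 for Cpa3 (SE 0.46, adjusted p = 0.0980), where 4 of the 7 had an unadjusted p under 0.05 and DESeq2 called 4 of the 6 to which it gave an adjusted p. Ear2, an eosinophil-associated ribonuclease, rose by 1.57 in sWAT (SE 0.28, adjusted p = 0.0140) and by 2.99 in BAT (SE 0.22, adjusted p = 6.08e-07), and it was the only called gene of 7 eosinophil markers, of which 2 passed in sWAT and 1 in BAT.

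Of 6 monocyte markers, 2 rose in sWAT and 4 of the 5 that passed rose in BAT. Chil3, a chitinase-like protein that neutrophils and alveolar macrophages also express, had 1 to 6 counts in sWAT Ctrl and 16 to 45 in Csn8AKO (2.90, SE 0.52, adjusted p = 0.0139). It passed the filter through its Csn8AKO libraries alone, so its place among the 2 that rose in sWAT depended on the filter. Ccr2, the receptor through which monocytes leave the marrow, rose by 1.66 in BAT (SE 0.17, adjusted p = 8.60e-06) and gave 1.22 in sWAT (SE 0.30, adjusted p = 0.0515). Of 6 red cell markers, edgeR and DESeq2 called 0 in either tissue and 0 had an unadjusted p under 0.05, with medians of 0.17 in sWAT and -0.48 in BAT. T cell markers had 3 of 7 higher in BAT, and B cell markers 1 of 5 lower (Cd79a, -0.93, SE 0.22, adjusted p = 0.00568).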
